A study of Mus musculus with 69 samples.

Results

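Neat1, Snhg20 and Rsrp1 were followed in the lungs of female C57BL/6 mice given titanium dioxide (TiO2) nanoparticles. They were 3 of 17639 genes measured, and were selected on their day 1 levels, which differed more between the 2 particles than those of any other gene called in that comparison. The mice were 5 to 7 weeks old on arrival, were acclimatised for 1 to 3 weeks, and received a single intratracheal instillation of vehicle (2% serum in water, which also carried the particles), of NRCWE-001 (unmodified TiO2) or of NRCWE-002 (positively charged TiO2). Each particle was given at 18, 54 or 162 µg, and whole lung was taken 1 or 28 days later. Each of the 14 groups held 5 mice, except vehicle at day 28 with 4, and each of the 69 mice had its own array.

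Neat1 is a long noncoding RNA that stays in the nucleus, where it holds together paraspeckles, the bodies that keep certain RNAs and RNA-binding proteins in place. Snhg20 is a small nucleolar RNA host gene, a spliced noncoding transcript whose introns can carry small RNAs. Rsrp1 encodes a protein rich in arginine and serine, the residues typical of splicing regulators, so it is a coding gene beside 2 noncoding ones. RNA came from a homogenised piece of lung, and neither the location of the transcripts in the cell nor their isoforms were measured. In such whole tissue, fewer cells of a type and less RNA per cell cannot be told apart.

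Each array compared lung RNA, labelled with Cy5, with 1 common reference RNA from mouse cells, labelled with Cy3. A level below is the log2 ratio of lung to reference, so 1 unit is a 2-fold difference and 0 is the level in the reference. Levels of different genes cannot be ranked on this scale, because the reference holds a different amount of each. Each of the 3 genes had 1 probe and 1 spot, well above background in both channels on 69 of 69 arrays and never saturated. The raw lung signal had a median of 21557 intensity units for Neat1, 15643 for Rsrp1 and 1302.5 for Snhg20, against a local background of at most 103 at any of the 3 spots. Lung markers were present, with the mean log2 ratio of 5 epithelial genes between 5.61 and 6.09 in the 14 groups. Across arrays 61.4% to 87.8% of spots were well above background in the lung channel.

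Promoters from RefSeq (GRCm38.p6) are printed because the transcripts were high in the same groups. The promoter set used held 2 of the 3 genes, and none for Neat1. Each line gives the 250 bases before the start of transcription, with letter runs of 7 searched motifs in capitals. Snhg20 lies at chr11:117076533-117076782 and Rsrp1 at chr4:134923375-134923624, both on the plus strand.
Snhg20: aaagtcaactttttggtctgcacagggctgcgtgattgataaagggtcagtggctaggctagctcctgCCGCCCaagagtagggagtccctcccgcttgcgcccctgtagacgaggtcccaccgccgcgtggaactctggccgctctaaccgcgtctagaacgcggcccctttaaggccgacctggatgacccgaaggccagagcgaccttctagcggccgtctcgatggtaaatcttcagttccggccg
Rsrp1: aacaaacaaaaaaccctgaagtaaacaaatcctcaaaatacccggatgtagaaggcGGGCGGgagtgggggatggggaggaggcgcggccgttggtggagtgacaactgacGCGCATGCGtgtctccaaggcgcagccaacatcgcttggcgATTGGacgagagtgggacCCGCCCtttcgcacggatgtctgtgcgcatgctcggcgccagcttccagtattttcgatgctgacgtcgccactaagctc
Both strands were searched for the TATA box (TATAAA), the CCAAT box (CCAAT), the GC box (GGGCGG), the ETS motif (CCGGAAGT), the cyclic AMP response element (TGACGTCA), the NRF1 motif (GCGCATGCG) and the E-box (CACGTG), and no matches overlapped. Snhg20 held 1 match, to the GC box, which occurs in 32.7% of 32851 promoters of that length. Rsrp1 held 2 matches to the GC box, 1 to the CCAAT box (33.8% of promoters) and 1 to the NRF1 motif (1.45%). The capitals mark letters only, and whether any factor binds there was not tested. The share of G and C was 60.8% for Snhg20 and 58.0% for Rsrp1, beside a median of 52.4% over all promoters.

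The choice of the members rested on day 1. The mean over doses in NRCWE-002 mice lay below that in NRCWE-001 mice by -0.89 ± 0.19 (SE, n = 15 and 15) for Neat1, -0.74 ± 0.15 for Snhg20 and -0.66 ± 0.13 for Rsrp1. These are the values that chose the genes among 22 called (0.125% of genes), so day 1 is described below with no test. With slide as a fixed block 0% of genes were called in this contrast, the members included, and their values were -0.68 ± 0.24, -0.59 ± 0.22 and -0.62 ± 0.20. The gene next in size was Tagln, a smooth muscle actin-binding protein, at 0.49 ± 0.09 with NRCWE-002 higher. The next with NRCWE-002 lower was Fam193b, at -0.47 ± 0.11.

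Taken apart by dose, 2 of the 6 exposed groups of day 1 stood highest, and for Rsrp1 low NRCWE-002 groups also entered the particle difference. All 3 transcripts were high in mice given 18 or 54 µg of NRCWE-001. Mice given 162 µg of the same particle lay near the level of vehicle mice. Mice given NRCWE-002 lay near or below vehicle at every dose, apart from Rsrp1 at 18 µg, which lay between vehicle and NRCWE-001. For Rsrp1 their differences from vehicle at 18, 54 and 162 µg were 0.30, -0.40 and -0.55 (SE 0.22 each). For Neat1 they were 0.09, -0.20 and -0.32 (SE 0.33), and for Snhg20 -0.06, -0.26 and -0.34 (SE 0.26).

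For Neat1 on day 1, the 5 vehicle arrays read 0.43, 0.97, 0.44, 0.45 and 0.17. At 18 µg of NRCWE-001 the arrays read 1.48, 1.40, 1.32, 1.82 and 1.68. At 54 µg of NRCWE-001 they read 1.53, 1.93, 1.68, 1.63 and 1.87. Every array of these dose groups lay above every vehicle array. At 162 µg of NRCWE-001 the arrays read 0.26, 0.39, 0.64, 0.27 and 0.60, within the range of the vehicle group. The difference from vehicle was 1.05 ± 0.33 (SE, n = 5 and 5) at 18 µg, or 2.07-fold. It was 1.24 ± 0.33 at 54 µg, or 2.36-fold. It was -0.06 ± 0.33 at 162 µg, so the highest dose did not continue the order of the lower ones.

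In NRCWE-002 mice Neat1 on day 1 stayed near vehicle at 18 and 54 µg and scattered at 162 µg. The arrays read 0.28, 0.83, 0.99, 0.38 and 0.43 at 18 µg. They read 0.27, -0.53, 1.01, 0.31 and 0.40 at 54 µg. They read -1.14, -0.08, 0.58, 0.49 and 0.99 at 162 µg, a group in which 2 arrays lay below all vehicle arrays and 1 above. The SD within a group was 0.82 there, against 0.17 at 54 µg of NRCWE-001, the tightest of the 14 groups for Neat1. The particle difference, NRCWE-002 minus NRCWE-001, was -0.96 ± 0.33 at 18 µg, -1.44 ± 0.33 at 54 µg and -0.26 ± 0.33 at 162 µg, the last at -0.00040 with slide as a fixed block.

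Snhg20 followed the same order at a lower ratio. Vehicle arrays on day 1 read -1.51, -1.14, -1.41, -1.52 and -1.64. At 18 µg of NRCWE-001 they read -0.72, -0.77, -0.97, -0.64 and -0.77. At 54 µg they read -0.28, -0.34, -0.65, -0.51 and -0.33, the highest group of all 14. Of the 3 transcripts, Snhg20 showed the widest step from 18 to 54 µg, and the groups did not overlap except for 1 array of 54 µg, at -0.65, that lay below the highest of 18 µg, at -0.64. At 162 µg of NRCWE-001 the arrays read -1.66, -1.45, -1.31, -1.80 and -1.66, of which 3 lay below all vehicle arrays. The differences from vehicle were 0.67 ± 0.26 (1.59-fold), 1.02 ± 0.26 (2.03-fold) and -0.13 ± 0.26 (SE, n = 5 and 5) in order of dose.

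Under NRCWE-002, Snhg20 stayed between -1.64 and -1.32 at 18 µg. At 54 µg the arrays read -1.50, -2.40, -1.35, -1.63 and -1.64, and at 162 µg -2.92, -2.04, -1.48, -1.49 and -0.99. The low arrays here were the same mice that were low for Neat1, replicate 2 at 54 µg and replicate 1 at 162 µg. The particle difference was -0.73 ± 0.26 at 18 µg, -1.29 ± 0.26 at 54 µg and -0.21 ± 0.26 at 162 µg, the last at -0.075 with slide as a fixed block.

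Rsrp1 on day 1 read -0.25, 0.41, -0.22, 0.44 and -0.08 in vehicle mice. At 18 µg of NRCWE-001 it read 0.66, 0.68, 0.58, 0.87 and 0.85. At 54 µg it read 0.82, 1.04, 0.83, 0.95 and 0.93. Both dose groups lay above all vehicle arrays and varied less than they did, with SDs of 0.13 and 0.09 against 0.34. At 162 µg the arrays read 0.09, -0.23, -0.02, -0.38 and -0.12. The differences from vehicle were 0.67 ± 0.22 (1.59-fold), 0.86 ± 0.22 (1.81-fold) and -0.19 ± 0.22 in order of dose.

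Rsrp1 was the transcript in which NRCWE-002 mice stood furthest from vehicle. The 18 µg arrays read 0.37, 0.45, 0.46, 0.53 and 0.01, of which 3 lay above all vehicle arrays. The 54 µg arrays read -0.39, -0.69, 0.24, -0.45 and -0.42, and 4 of 5 lay below all vehicle arrays. The 162 µg arrays read -1.66, -0.66, -0.31, -0.26 and 0.41, again with 4 of 5 below all vehicle arrays. The particle difference was -0.36 ± 0.22 (SE) at 18 µg, -1.26 ± 0.22 at 54 µg and -0.36 ± 0.22 at 162 µg.

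**Figure D1:**
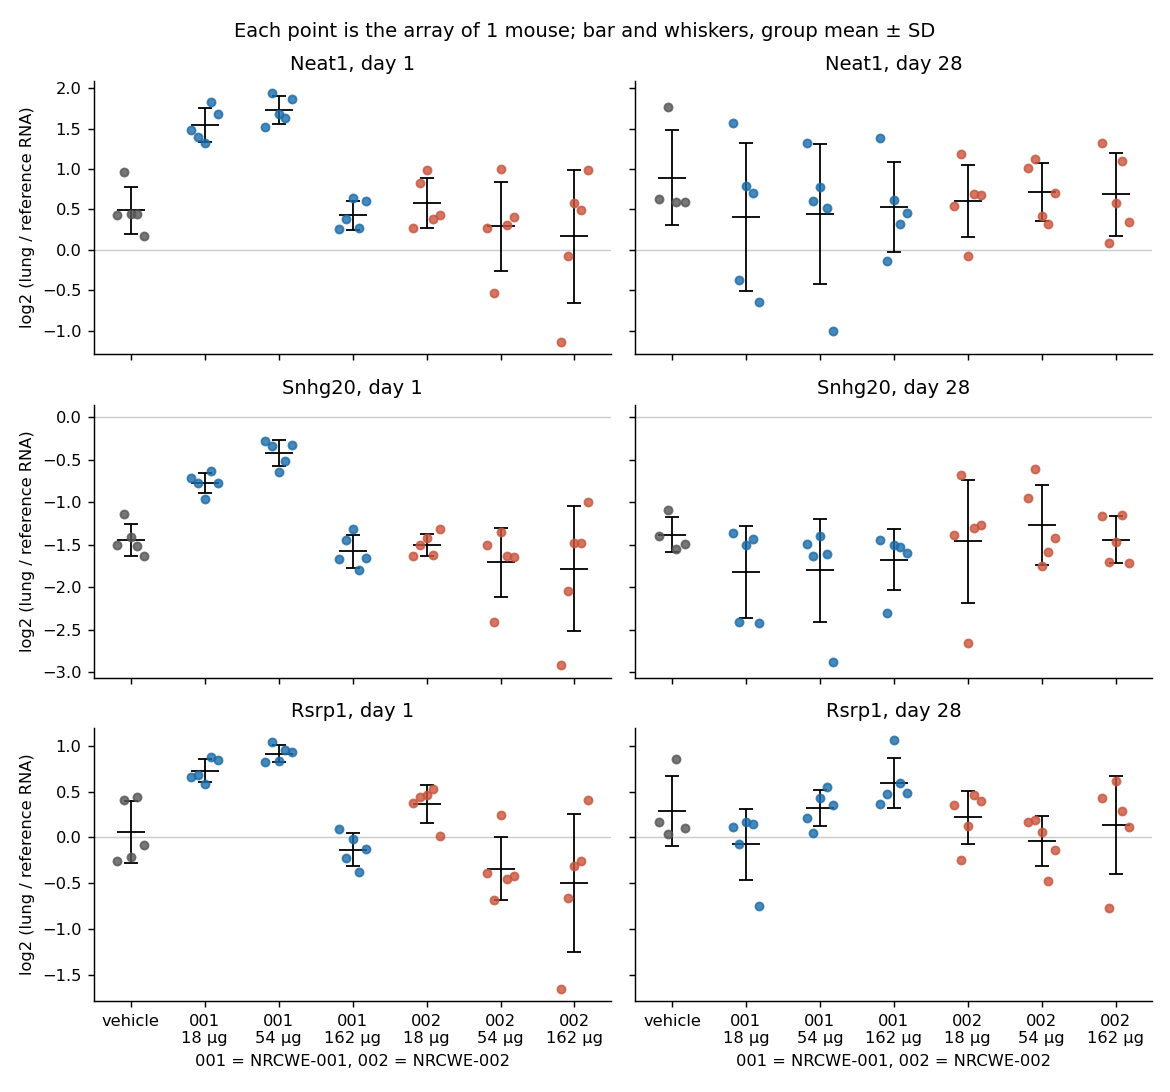
Log2 ratio of lung to reference RNA (vertical axes) for Neat1, Snhg20 and Rsrp1 in the 7 groups of day 1 (left) and of day 28 (right). Each point is the array of 1 mouse, and the bar with whiskers is the group mean ± SD. On day 1 the groups given 18 and 54 µg of NRCWE-001 stand above the rest for all 3 genes, and on day 28 the groups overlap.

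Together, the 10 arrays of 18 and 54 µg of NRCWE-001 lay above the 25 other arrays of day 1 for 3 of 3 members, which held for 11 genes (0.0624% of all). The mean of the 10 arrays was 1.63 ± 0.20 (SD) for Neat1 against 0.39 ± 0.47 in the 25 others, with a gap of 0.31 between the lowest of the 10 and the highest of the rest. For Snhg20 the means were -0.60 ± 0.23 and -1.60 ± 0.39, and the gap was only 0.03. For Rsrp1 they were 0.82 ± 0.14 and -0.11 ± 0.49, with a gap of 0.05. The other 8 genes, named after their values were seen, were Sap25, Lgals4, Hdac10, Sirt7, Ap5z1, Rexo5, 1700029I15Rik and 4933439C10Rik, with gaps of at most 0.09. Against vehicle alone, all arrays of the dose lay above all vehicle arrays for 0.918% of genes at 18 µg, 2.05% at 54 µg and 1.98% at 162 µg, with 3, 3 and 0 members among them. NRCWE-001 arrays of 18 µg lay above all NRCWE-002 arrays of that dose for 1.39% of genes, and those of 54 µg for 1.68%, with 3 members each time. On day 28, all arrays of 18 µg lay above all vehicle arrays for 0.964% of genes and for 0 of the members. This separation was read from the arrays that chose the members, and is a description.

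The 69 arrays lay on 18 slides of up to 4 arrays, numbered here in the order of scanning. Slides 1, 3 and 5 each held a vehicle mouse and all 3 doses of NRCWE-001 from day 1, so doses could be set against vehicle within a slide. Neat1 at 54 µg lay above the vehicle array of its slide by 1.098, 0.967 and 1.242 on slides 1, 3 and 5. At 18 µg the differences were 1.05, 0.43 and 0.88, and at 162 µg they were -0.17, -0.58 and 0.20. The order 54 over 18 over 162 µg was thus found for Neat1 on each of the 3 slides.

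Snhg20 gave 1.23, 0.80 and 0.76 at 54 µg, and 0.79, 0.37 and 0.44 at 18 µg, on the same slides. Rsrp1 gave 1.08, 0.63 and 1.05 at 54 µg, and 0.91, 0.27 and 0.80 at 18 µg. At 162 µg the differences ran from -0.31 to 0.10 for Snhg20 and from -0.64 to 0.34 for Rsrp1. Among all genes, 0.42% exceeded 0.5 on all 3 slides at 54 µg, as did the 3 members, and 0.085% did so at 18 µg, as did none of the members, since slide 3 had the smallest step for each of them.

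**Figure D2:**
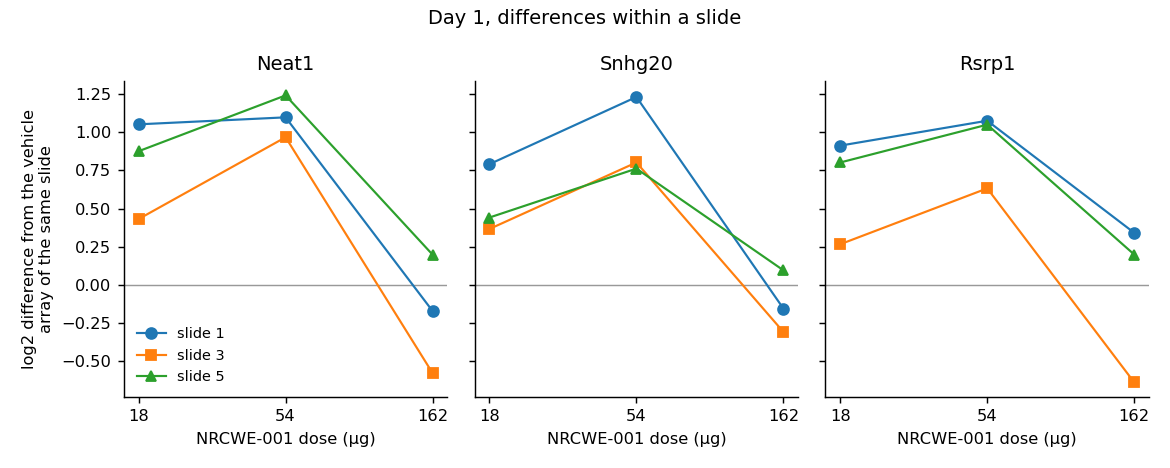
Log2 difference between an NRCWE-001 array and the vehicle array of the same slide (vertical axis) by dose in µg (horizontal axis, evenly spaced), on day 1. Each line is 1 of slides 1, 3 and 5. In every panel the line rises from 18 to 54 µg and ends lowest at 162 µg.

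Slides 12 and 14 held both particles on day 1. On slide 12, Neat1 was lower under NRCWE-002 than under NRCWE-001 by -0.70 at 18 µg and by -2.17 at 54 µg. On slide 14 it was lower by -0.86 at 54 µg. The same pairs gave -0.66, -1.89 and -1.02 for Snhg20, and -0.39, -1.64 and -0.69 for Rsrp1. All 9 of these differences had the sign of the group means. The NRCWE-002 array of slide 12 at 54 µg was replicate 2. It was the lowest of its group for Neat1, Snhg20 and Rsrp1, at -0.53, -2.40 and -0.69. With slide as a fixed block in the fit, the particle difference at 54 µg was -1.23 for Neat1, -1.13 for Snhg20 and -1.20 for Rsrp1.

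The larger part of the day 1 difference lay in the lung channel. The Cy5 signal of Neat1, as log2 above the array median, averaged 8.14 at 18 µg and 8.35 at 54 µg of NRCWE-001, against 7.28 in vehicle mice. The Cy3 signal of the reference averaged 6.72, 6.61 and 6.91 in the same groups. For Snhg20 the lung channel averaged 3.89 and 4.39 against 3.29, and the reference 4.51 and 4.53 against 4.62. For Rsrp1 the lung channel averaged 7.31 and 7.54 against 6.77, and the reference 6.66 and 6.57 against 6.79. The reference of all 3 genes was thus slightly lower in these groups, by less than the difference in the lung channel.

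Several other measures were set beside these groups. Between 69.1% and 84.5% of spots were well above background at 18 µg of NRCWE-001 and between 67.1% and 79.7% at 54 µg, against 62.9% to 72.8% in vehicle mice. Of 4 neutrophil marker genes measured (of 5 listed), 1 was higher at 18 µg and 3 at 54 µg of NRCWE-001, with their mean log2 ratio between 2.69 and 3.19 and between 2.74 and 3.87, against 2.63 to 3.30 in vehicle mice. At 162 µg, where Neat1 was back at vehicle level, the 4 were higher and their mean ratio ran from 2.83 to 4.38. All 5 epithelial and all 3 endothelial markers were lower at 18 and at 54 µg than in vehicle mice. The medians were -0.14 and -0.15 for the epithelial list and -0.27 and -0.15 for the endothelial one. Of these 0 were called, as were 0% of all genes at both doses. With slide as a fixed block 0 of them were called, against 0.0227% and 0.765% of all genes. At 18 µg all 5 heart muscle and all 5 adipocyte markers were higher than in vehicle mice, with medians of 0.43 and 0.25, while at 54 µg 4 of 5 in each list were lower, with medians of -0.08 and -0.10. At 162 µg of NRCWE-001, 4 of 5 epithelial and 2 of 3 endothelial markers were lower than in vehicle mice, with medians of -0.18 and -0.055. There all 5 heart muscle and 3 of 5 adipocyte markers were higher, with medians of 0.50 and 0.02. The part of these measures in the result was not tested.

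Over all 14 groups the 2 groups of day 1 given 54 and 18 µg of NRCWE-001 ranked first and second for each transcript. For Neat1 the means were 1.73 ± 0.17 and 1.54 ± 0.21 (SD, n = 5), and the other 12 ran from 0.17 to 0.89. For Snhg20 they were -0.42 ± 0.15 and -0.77 ± 0.12, and the other 12 ran from -1.82 to -1.26. For Rsrp1 they were 0.92 ± 0.09 and 0.73 ± 0.13, and the third, 162 µg of NRCWE-001 at day 28, followed at 0.60 ± 0.27. The step from the second to the third group exceeded the larger SD of the 2 groups for Neat1 (0.65 against 0.58) and Snhg20 (0.49 against 0.47), and not for Rsrp1 (0.13 against 0.27). Below the third place, no neighbours in the order were further apart than that SD for any of the 3 transcripts.

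The comparisons of day 28 use mice that played no part in the choice, and were tested. By then the NRCWE-001 mice no longer stood out, and no member was called in any of the 10 comparisons of exposed mice. Neat1 at 18 µg of NRCWE-001 read 1.57, -0.38, 0.79, 0.70 and -0.65, and at 54 µg 1.32, 0.60, 0.78, 0.52 and -0.997. The 4 vehicle arrays read 0.62, 1.77, 0.59 and 0.59, of which 3 lay inside the span of both dose groups and 1 above it. Arrays of NRCWE-002 ran from -0.07 to 1.33 over the 3 doses.

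The particle difference of Neat1 on day 28, mean over doses, was 0.21 ± 0.19 (SE, n = 15 and 15; limma adjusted p = 0.547), with a 95% confidence interval from -0.18 to 0.59. The sign opposed that of day 1, but turned to -0.19 when arrays were centred on their median in place of loess. By dose the difference was 0.20 ± 0.33, 0.27 ± 0.33 and 0.16 ± 0.33 at 18, 54 and 162 µg (limma adjusted p of 0.892, 0.904 and 0.923), each also below 0 under median centring. In that comparison of mean over doses 4.75% of genes were called, and 0 of the 3 members, with 1 (Snhg20) at an unadjusted p below 0.05. By dose 0.119%, 0.0283% and 0% of genes were called, and 2 member values had an unadjusted p below 0.05, Snhg20 at 54 µg and Rsrp1 at 162 µg. With slide as a fixed block 0.0227% of genes were called over doses, and 0 members.

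Snhg20 on day 28 was nearest to a call. Its 15 NRCWE-002 arrays had a median of -1.39 between -2.65 and -0.62, and the 15 NRCWE-001 arrays a median of -1.52 between -2.88 and -1.36. At the upper end the particles separated, with 7 NRCWE-002 arrays above all NRCWE-001 arrays, while both particles had low single arrays. The highest, at -0.62 and -0.68, lay on slide 4. The Snhg20 reference signal there was 3.76 to 4.08, against 3.91 to 5.35 on slides other than 4 and 6. The difference was 0.38 ± 0.15 (limma adjusted p = 0.122), with an interval from 0.08 to 0.68. Leaving out 1 array, replicate 3 of NRCWE-002 at 18 µg, which read -2.65, gave 0.48 with a limma adjusted p of 0.0345, the only call among 30 such fits. With slide as a fixed block the value was 0.23, and under median centring 0.071. At 54 µg the difference was 0.54 ± 0.26 (limma adjusted p = 0.611), the largest of the 3 doses, and at 18 and 162 µg it was 0.36 ± 0.26 and 0.23 ± 0.26, the last turning to -0.16 under median centring.

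Rsrp1 on day 28 differed in sign between doses. NRCWE-002 minus NRCWE-001 was 0.30 ± 0.22 at 18 µg, -0.36 ± 0.22 at 54 µg and -0.46 ± 0.22 at 162 µg (SE, n = 5 and 5; limma adjusted p of 0.709, 0.715 and 0.583), and under median centring the first turned to -0.12. The NRCWE-001 arrays at 162 µg read 0.36, 0.48, 1.06, 0.59 and 0.49, against 0.43, -0.77, 0.62, 0.29 and 0.11 for NRCWE-002. In this pair 3 NRCWE-002 arrays lay below all NRCWE-001 arrays, and the rest overlapped. Averaged over doses the difference was -0.17 ± 0.13 (limma adjusted p = 0.428; interval -0.43 to 0.08). Median centring moved it to -0.55 with a limma adjusted p of 0.0124, the only one of 10 alternatives under which it was called.

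**Figure D3:**
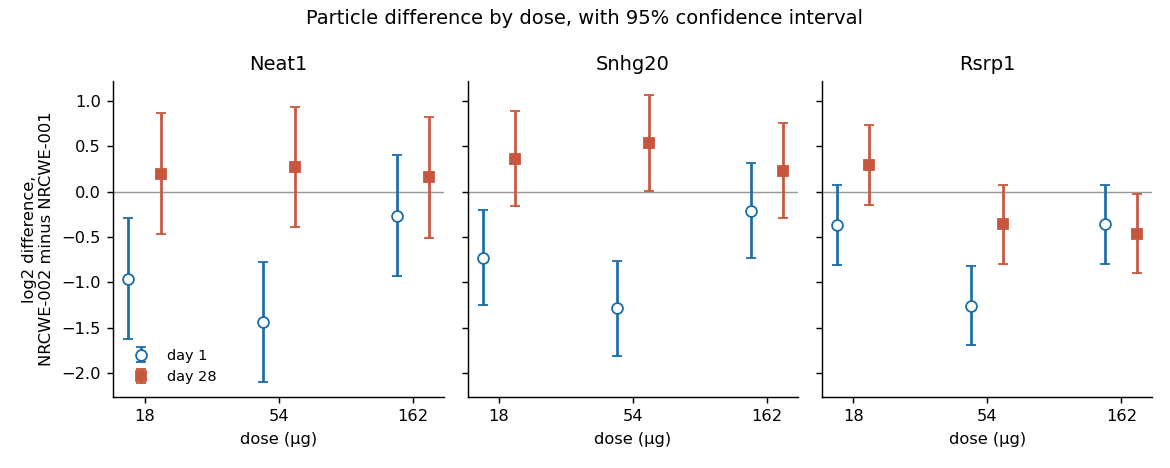
Log2 difference, NRCWE-002 minus NRCWE-001 (vertical axis), with its 95% confidence interval from the fit of all arrays, by dose in µg (horizontal axis). Open circles are day 1, whose values chose the genes, and filled squares are day 28. The day 1 points are furthest below 0 at 54 µg, at -1.44, -1.29 and -1.26, and most day 28 intervals include 0.

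Against vehicle on day 28, the 6 exposed groups share the 4 vehicle arrays, and none of the 18 differences was called (0 at an unadjusted p below 0.05). Of all genes 0.193%, 0% and 0.0454% were called at 18, 54 and 162 µg of NRCWE-001, and 0%, 0% and 0.00567% for NRCWE-002. Neat1 was lower than vehicle in each of the 6, from -0.49 ± 0.35 (SE) at 18 µg of NRCWE-001 to -0.18 ± 0.35 at 54 µg of NRCWE-002. The vehicle mean of 0.89 ± 0.58 (SD, n = 4) rested on replicate 2, at 1.77. Without slide 6, which held that array, Neat1 under NRCWE-002 was 0.00319, 0.12 and 0.09 above vehicle in order of dose. Vehicle mice of day 28 differed from those of day 1 by 0.40 ± 0.35 for Neat1, 0.06 ± 0.28 for Snhg20 and 0.23 ± 0.23 for Rsrp1 (limma adjusted p of 0.888, 0.994 and 0.907; 0% of genes called), and all 3 changed sign with slide as a fixed block. No interval was narrow enough to show equal levels.

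The members varied far more between mice of a group than most genes. The SD within groups was 0.54 for Neat1, 0.42 for Snhg20 and 0.35 for Rsrp1, against a median of 0.17 over all genes, and was higher than that of 98.2%, 95.6% and 91.7% of genes. Slides took 40.7%, 30.8% and 17.3% of the sum of squares within groups, against a median of 54.1%. The slide term passed its test for Neat1 (moderated F of limma 2.36, adjusted p = 0.0189), as for 72.8% of all genes (73% with scan day in place of slide). It did not pass for Snhg20 (1.36, adjusted p = 0.241) or Rsrp1 (0.59, adjusted p = 0.887), though both passed under median centring.

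Slide 6 stood apart for Neat1. Its 4 arrays, the vehicle and the 3 NRCWE-001 doses of day 28, read between 1.32 and 1.77, and included the highest array of each of these groups. Their reference signal for Neat1 was 5.75 to 5.95, below the 6.05 to 7.44 of slides other than 4 and 6, although every array carried the same reference RNA. Without slide 6 the day 28 particle difference of Neat1 was 0.45 (limma adjusted p = 0.125) and that of Snhg20 0.46 (limma adjusted p = 0.0882). On slide 4, with the 3 NRCWE-002 doses of day 28, the Rsrp1 reference was 7.49 to 7.70, above the 5.98 to 7.23 elsewhere, and the lowest Rsrp1 array of day 28, at -0.77, lay there. Without slide 4 the day 28 difference of Rsrp1 was -0.08 and that of Snhg20 0.28.

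**Figure D4:**
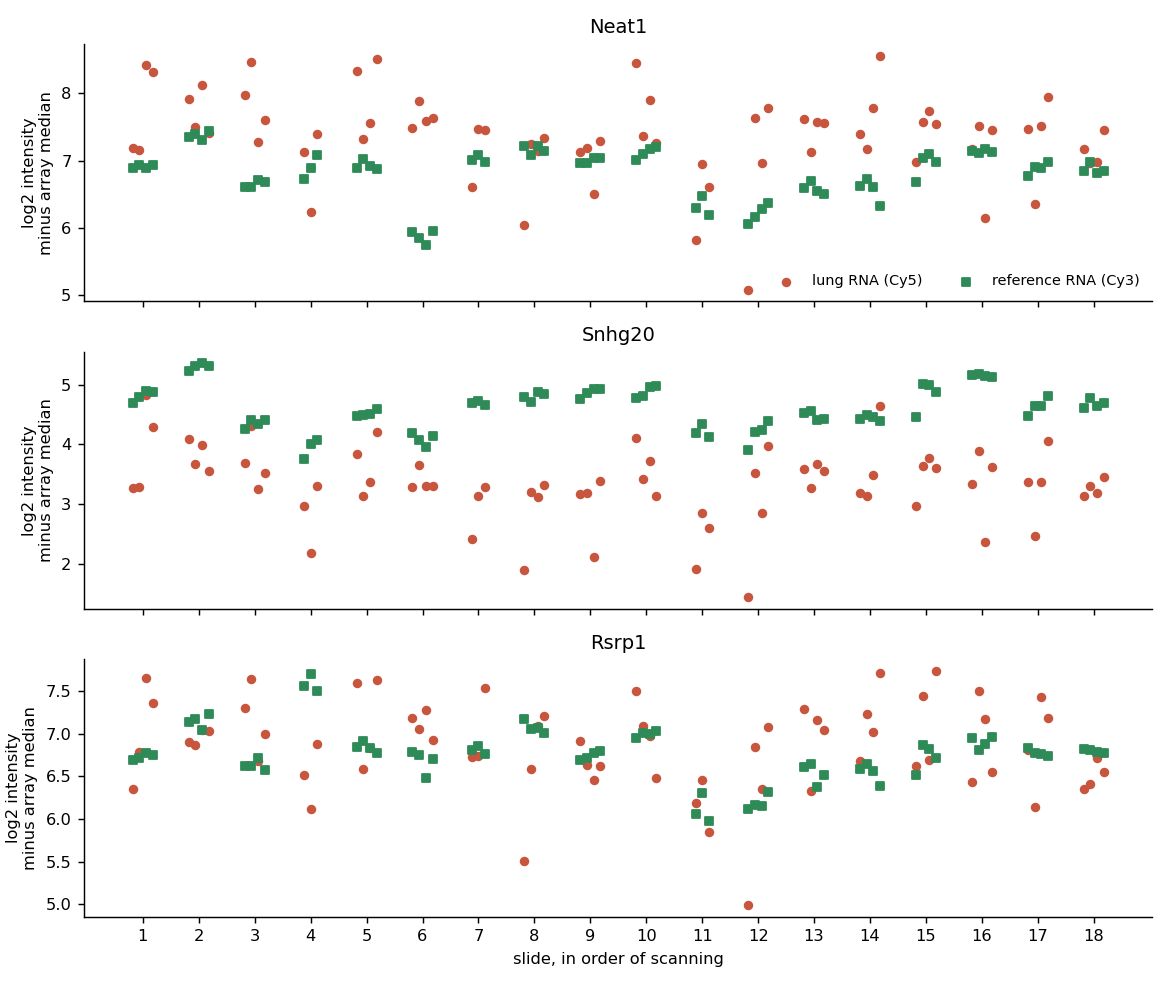
Lung (Cy5, circles) and reference (Cy3, squares) signal of the 3 genes, as log2 intensity minus the median of that channel of the array (vertical axes), by slide in order of scanning (horizontal axis). Each pair of points is 1 array. The Neat1 reference is lowest on slide 6, and the Rsrp1 reference highest on slide 4.

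Outside the exposed mice of day 1, Neat1 and Snhg20 moved together from array to array, and Rsrp1 followed them less closely on each measure below. Over the 39 arrays of day 28 and of day 1 vehicle, Pearson's r between Neat1 and Snhg20 was 0.84 (Spearman's rho 0.85), 0.76 without the 2 arrays furthest from the median of Neat1, and 0.93 after slide means were removed. All arrays share the reference RNA and a slide with others, so these values are a description. For Neat1 and Rsrp1 r was 0.21 (rho 0.16), and 0.47 after slide means were removed. For Snhg20 and Rsrp1 r was 0.12 (rho 0.11), and 0.43 after slide means were removed. Over all 69 arrays, which include those that chose the genes, the 3 values were 0.91, 0.65 and 0.59. For the lung channel alone over the 39 arrays they were 0.95, 0.61 and 0.61. For the reference channel alone they were 0.78, 0.53 and 0.14, although its RNA was the same on every array.

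The lowest of all 69 arrays, exposed mice of day 1 included, were partly shared by all 3 genes. Of the 5 lowest arrays for Neat1, 4 were among the 5 lowest for Snhg20, and 3 among the 5 lowest for Rsrp1. Replicate 1 of NRCWE-002 at 162 µg on day 1 was lowest of 69 for all 3, at -1.14, -2.92 and -1.66. Replicate 5 of NRCWE-001 at 54 µg on day 28 was next for Neat1 (-0.997) and Snhg20 (-2.88), while its Rsrp1 read 0.36, within its group.

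**Figure D5:**
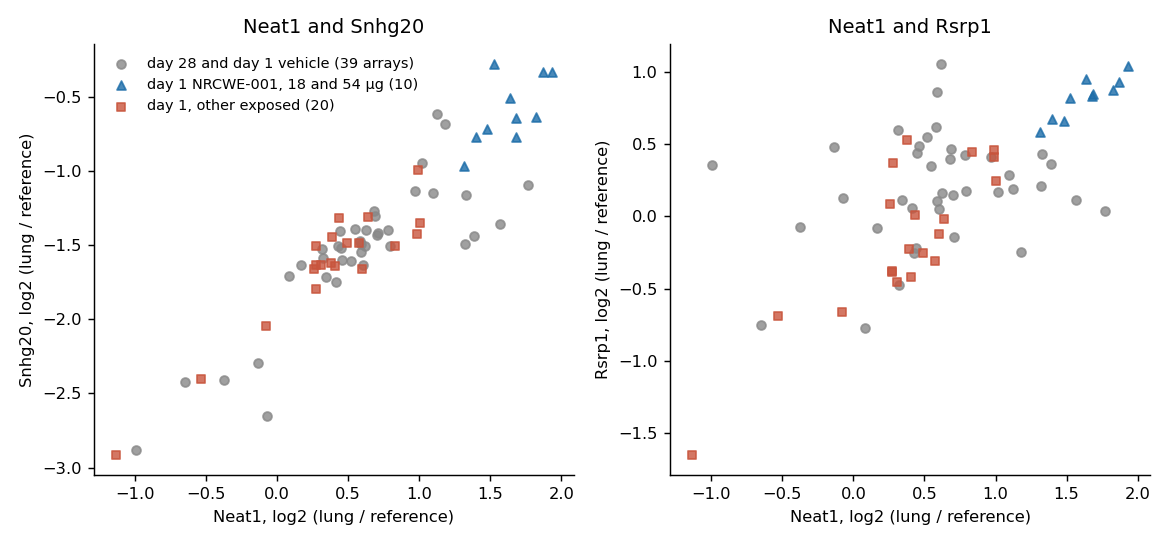
Log2 ratio of Snhg20 (left) and Rsrp1 (right) against that of Neat1 (horizontal axes) on 69 arrays. Circles are the 39 arrays the choice did not use, triangles the 10 day 1 arrays of 18 and 54 µg of NRCWE-001, and squares the 20 other exposed arrays of day 1. Circles follow a line for Snhg20 (r = 0.84) and scatter for Rsrp1 (r = 0.21).

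Genes whose pattern was most like each member were ranked by r over the same 39 arrays, where 1% of all genes exceeded 0.61 for Neat1, 0.57 for Snhg20 and 0.47 for Rsrp1. Ccnl2, a cyclin found in the speckles that store splicing factors, led for Neat1 (r = 0.88), followed by Snhg20 itself, Rgs11 (0.84), Sap25 (0.82) and E4f1 (0.81). For Snhg20 the closest were Acrbp (0.88), Ccnl2 (0.87), Zfp692 (0.86), Rgs11 (0.86) and Sap25 (0.85). For Rsrp1 a different group led, headed by Clk1, the kinase that phosphorylates splicing factors of the SR family (0.77). It was followed by Mat2a, which makes S-adenosylmethionine (0.71), Luc7l3, a spliceosomal protein (0.69), Zfp566 (0.67) and Tiparp (0.67).

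The means of these genes were also higher in the 10 day 1 arrays of 18 and 54 µg of NRCWE-001, though by less than the members. The mean of the 10 exceeded that of the other 25 by 0.73 for Rgs11, 0.61 for Zfp692, 0.46 for Sap25, 0.44 for Luc7l3 and 0.37 for Ccnl2, beside 1.24 for Neat1. Sap25 separated the 10 from the 25 entirely. Clk1, at 0.37, had 0 of 10 arrays above all 25, as had Mat2a (0.23) and Zfp566 (0.07), and Tiparp (0.14) had 1. On day 28 none of the 11 was called for the particle difference, against 4.75% of all genes. Zfp692 came nearest at 0.37 ± 0.12 (SE; limma adjusted p = 0.0581).

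The 4 lists related to the members were read in the same fits, each beside its own counts. Paraspeckle proteins bind Neat1, and 14 of 14 were measured. On day 28, 2 of them were called higher and 0 lower under NRCWE-002, against 2.15% and 2.59% of all genes. By direction alone 10 lay higher and 4 lower, with a median of 0.07 over the list and 0.01 over all genes. Cpsf7, a cleavage factor of mRNA 3′ ends, rose by 0.25 ± 0.06 (SE, n = 15 and 15; limma adjusted p = 0.00967), a call lost with slide as a fixed block (0.07). The other was Dazap1, named after its value was seen, at 0.18 ± 0.05, a call also lost with that block (0.031). Tardbp, an RNA-binding protein that regulates splicing, was at -0.23 ± 0.08 and Hnrnph3 at 0.22 ± 0.08, neither called, and Tardbp turned to 0.10 with that block. On day 1 at 54 µg of NRCWE-001, where Neat1 was highest, 11 of the 14 lay above vehicle and 3 below. The list had a median of 0.11, against 0.01 over all genes. At 162 µg, where Neat1 was near vehicle level, 11 also lay above and 3 below, with a median of 0.10. At 18 µg 10 lay above and 4 below, with a median of 0.06. At 54 µg 0 of the 14 were called, as were 0% of all genes. With slide as a fixed block 0.765% of all genes were called there, and 0 of the 14.

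Of 12 other nuclear long noncoding RNAs, 9 were measured, and 0 were called on day 28, against 4.75% of all genes. Malat1, the abundant speckle RNA encoded beside Neat1, was at 0.31 ± 0.15 (limma adjusted p = 0.225), Xist at 0.17 ± 0.18 and Firre at 0.13 ± 0.11, the first turning to -0.09 with slide as a fixed block. At 54 µg of NRCWE-001 on day 1, 7 of the 9 lay above vehicle, with a median of 0.03, beside 1.24 for Neat1. In that comparison 0% of all genes were called, and 0.765% with slide as a fixed block. Of the 9, 0 were called in either fit, which at these shares does not set the list apart.

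Of 19 snoRNA host genes other than Snhg20, 6 were measured and 0 were called on day 28, against 4.75% of all genes. Snhg8 was at -0.21 ± 0.09 (0.08 with slide as a fixed block), Snhg5 at 0.15 ± 0.10 and Snhg17 at 0.15 ± 0.07. At 54 µg of NRCWE-001 on day 1, 5 of the 6 lay above vehicle with a median of 0.16 and a highest value of 0.38, beside 1.02 for Snhg20.

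SR proteins and splicing regulators were measured for 37 of 38 genes. On day 28, 3 were called higher under NRCWE-002 and 0 lower, against 2.15% and 2.59% of all genes. By direction alone 20 lay higher and 17 lower, with a median of 0.02. Each of the 3 calls was lost when slide entered as a fixed block. Sfswap, a splicing regulator, rose by 0.23 ± 0.06 (SE; limma adjusted p = 0.0199), and the others, named after their values were seen, were Srsf4 (0.16 ± 0.05) and Srsf12 (0.11 ± 0.04). Tra2b, a splicing activator, was at -0.32 ± 0.10 (limma adjusted p = 0.0514), and Rbm39 at -0.23 ± 0.11, neither called. On day 1 at 54 µg, 28 of the 37 lay lower under NRCWE-002 than under NRCWE-001, with a median of -0.15. This contrast is part of the one that chose the members, and is not tested here. The lowest of the list was Luc7l3, at -0.70 ± 0.14, the gene also close to Rsrp1 across arrays. Luc7l3 was itself among the 22 genes called in the contrast that chose the members, at -0.40 ± 0.08.

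Markers of other tissues in the lung pieces were also compared between particles on day 28. All 5 heart muscle markers and all 5 adipocyte markers were higher under NRCWE-002, with medians of 0.89 and 0.54. Of these 0 were called, against 4.75% of all genes. Their part in the day 28 values of the members was not tested. On day 1 at 54 µg the 5 heart markers were also higher under NRCWE-002, with a median of 0.62, and against vehicle 4 of 5 were lower at 54 µg of NRCWE-001.

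The log2 ratios deposited by the authors, normalised by their own LOWESS fit, gave the same picture for these probes. Over 69 arrays they correlated with the ratios used above at 0.996 for Neat1, 0.999 for Snhg20 and 0.995 for Rsrp1. On that scale the means at 54 µg of NRCWE-001 on day 1 were 1.71 ± 0.17 (SD, n = 5), -0.52 ± 0.15 and 0.86 ± 0.09, against 0.42 ± 0.29, -1.54 ± 0.19 and -0.02 ± 0.33 in vehicle mice. The 10 arrays of 18 and 54 µg lay above the 25 others for all 3 genes, as for 0.068% of all genes. The particle difference at 54 µg was -1.52, -1.29 and -1.32, and on day 28, mean over doses, 0.19, 0.37 and -0.21.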

How the data were processed

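Total RNA from lungs (RNA integrity number above 7.0 per the labels) and a common reference RNA were hybridised to 2-colour Agilent arrays. The deposited scanner files (Feature Extraction 11.0.1.1, array annotation on mm9) hold median intensity per spot and channel, as the authors' scanner gave it. The series table holds log2 ratios that the authors normalised by LOWESS. Here intensities were corrected with normexp (offset 50, spots with a background over 10 median absolute deviations left out of its fit), normalised by loess within each array, and summarised as the median over kept probes of a gene. Probes were kept if well above background in the lung channel on at least 4 arrays. Transcript identifiers of 27479 of 41174 probes matched a RefSeq symbol (GRCm38.p6), and 17639 genes were tested. One limma fit (limma 3.58.1, R 4.3.3) of 14 group means over 69 arrays gave each contrast, with 2-sided tests and Benjamini-Hochberg adjustment over all genes at 0.05. Slide, from the scanner files, was tested with a moderated F. The number of arrays limits the precision. On simulated data with 200 changed genes, 93 of 100 at 1.5-fold and 100 of 100 at 2-fold were called in the day 28 particle contrast. The changed genes were drawn at random and the data held no slide effect. The members varied more within groups than most genes, so these shares do not apply to them. Named genes were the members, the 5 most correlated with each over 39 arrays, and up to 3 per list with the largest day 28 particle difference. The members and lists were chosen with earlier results of these data known. Nothing says that mice of a group came from separate cages or runs, so p-values measure the spread between these mice.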

Additional observations from a re-analysis of the deposited data

Results flagged for a closer look

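In 42 sets of 4 or 5 arrays (3 genes in 14 groups), 6 held an array whose gap to its nearest neighbour was past Dixon's 95% limit, where chance gives about 1 in 20, or 2.1. Neat1 in vehicle replicate 2 of day 28 read 1.77, against 0.59 to 0.62 in the other 3 mice, on slide 6. Snhg20 read -2.88 in replicate 5 of NRCWE-001 at 54 µg on day 28, against -1.63 to -1.40 in the others. It read -2.30 in replicate 2 of NRCWE-001 at 162 µg on day 28, against -1.60 to -1.44. It read -2.40 in replicate 2 of NRCWE-002 at 54 µg on day 1, against -1.64 to -1.35. Rsrp1 read 0.86 in vehicle replicate 3 of day 28, against 0.03 to 0.16. It read -0.75 in replicate 5 of NRCWE-001 at 18 µg on day 28, against -0.07 to 0.17.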

How the results depend on the processing

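On day 1 the particle differences over doses and at 18 and 54 µg, and the values of 18 and 54 µg of NRCWE-001 against vehicle kept their sign under all 8 alternatives (the authors' ratios, processed signals, no background correction, median centring, no filter, slide as a fixed or random block, scan day). At 162 µg the particle differences of Neat1 and Snhg20 shrank to -0.00040 and -0.075 with slide as a fixed block. Values near 0 against vehicle did not, reaching 0.11 for Neat1 at 162 µg of NRCWE-001 and, at 18 µg of NRCWE-002, -0.10 for Neat1 and 0.03 for Snhg20. Median centring turned the day 28 particle difference of Neat1 to -0.19 over doses and to -0.21, -0.025 and -0.33 at 18, 54 and 162 µg, of Rsrp1 at 18 µg to -0.12 and of Snhg20 at 162 µg to -0.16, while the median of all genes at 162 µg moved to -0.12. It gave Rsrp1 over doses a call at -0.55 and raised the slide F of Snhg20 to 3.02 and of Rsrp1 to 2.39, both called, and the cause was not tested. Slide as a fixed block turned vehicle day 28 against day 1 to -0.35, -0.21 and -0.086 for Neat1, Snhg20 and Rsrp1, Rsrp1 at 18 µg of NRCWE-002 on day 28 to 0.030 and Snhg20 at 54 µg to -0.011. For the vehicle comparison of Snhg20, slide as a random block gave -0.00050 and scan day -0.016. 2 alternatives were chosen after seeing the data. Without slide 6, values against vehicle on day 28 turned to -0.029 for Rsrp1 at 54 µg of NRCWE-001, to 0.0032, 0.12 and 0.085 for Neat1 at the 3 doses of NRCWE-002, to 0.019 and 0.037 for Snhg20 at 18 and 162 µg, and to -0.037 for Snhg20 between vehicle groups. Without slide 4 they turned to 0.045 and 0.072 for Rsrp1 at 18 and 162 µg of NRCWE-002, and to -0.044 and 0.0073 for Snhg20 at 54 and 162 µg. None of these was called before or after, apart from those named as called.

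Leaving out 1 array at a time gave -0.47 to 0.063 for Neat1 and -0.41 to 0.074 for Snhg20 in the day 1 particle difference at 162 µg, and 0.29 to 0.48 for the day 28 particle difference of Snhg20 over doses (called once, without replicate 3 of NRCWE-002 at 18 µg), and for Neat1 -0.066 to 0.49, -0.089 to 0.49 and -0.0083 to 0.37 at 18, 54 and 162 µg. Against vehicle on day 28 it gave -0.056 to 0.22 for Rsrp1 at 54 µg of NRCWE-001. For NRCWE-002 it gave -0.43 to 0.0032, -0.28 to 0.12 and -0.37 to 0.085 for Neat1, -0.27 to 0.22, -0.044 to 0.24 and -0.13 to 0.037 for Snhg20 in order of dose, and -0.16 to 0.12 and -0.28 to 0.072 for Rsrp1 at 18 and 162 µg. Between vehicle groups Snhg20 gave -0.037 to 0.14. No paired analysis was possible because replicate numbers were given in accession order and pair no mice, so that slides, which hold several groups, entered as a block. With 1 probe per gene, a fault of that probe would not show. The signals were well above background on all arrays.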
